A study of Mus musculus with 22 samples.

Results

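The comparison described here set Bmal1 KO against Bmal1 WT regulatory T cells (Tregs) recovered from visceral adipose tissue after adoptive transfer. It used 4 of the 22 RNA-seq libraries of the series, 2 KO and 2 WT, taken by their labels and not by any measured value. The cells were Foxp3YFP+ Tregs sorted in 2 rounds at lights-on (ZT0), 9 weeks after transfer, and the mice were 20 weeks old males at sacrifice. All groups carried the Foxp3.Cre-YFP allele on C57BL/6. This allele puts Cre under the control of Foxp3, so that Cre acts in Foxp3-expressing cells. The labels give neither the strain, genotype and diet of the hosts, nor the organ the donor cells came from, nor a marker used to tell donor from host cells. The other 18 libraries came from Tregs of mice that received no transfer: lean diet and 4 weeks of high fat diet at 18 weeks of age, and 16 weeks of high fat diet at 30 weeks of age, with 3 WT and 3 KO libraries each. They served here to look up the same genes. The transfer and diet groups differ in age, handling and depth, which cannot be told apart from one another in any difference between the 2 experiments.

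BMAL1, encoded by Arntl, pairs with CLOCK or NPAS2 and binds E-boxes, through which it drives the genes of its own repressors, the PER and CRY proteins, and of the nuclear receptors REV-ERBα and REV-ERBβ. The REV-ERBs in turn repress genes with binding elements for ROR receptors, Arntl, Npas2 and Cry1 among them. Tregs of visceral fat are a resident population that expresses PPARγ and the IL-33 receptor, and that is known for restraining inflammation in the tissue. Adoptive transfer places donor cells in new hosts, and the cells studied are those that are found in the fat weeks later.

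The transfer libraries held 4814337 to 5990319 counts and the diet libraries 1955940 to 3467019. Levels are given in CPM, that is, counts relative to the TMM-adjusted total of each library, and 3 counts, the limit that a count of 0 allows, equal 0.539 to 0.659 CPM in the transfer libraries (counting error only). The log2 levels of the 2 WT libraries correlated across genes at r = 0.962, those of the 2 KO libraries at 0.966, and KO with WT libraries at 0.958 to 0.960. Treg identity was present in both groups. Foxp3, the lineage factor, had 685 and 630 CPM in WT and 623 and 565 CPM in KO. The summed level of 6 Treg markers was 5061 to 5257 CPM in WT and 5280 to 5705 CPM in KO. Arntl itself read 96.2 and 83.8 CPM in WT and 96.4 and 96.6 CPM in KO (log2 fold change 0.09 ± 0.17 SE, adjusted p = 0.983). The deleted part of Arntl is not given in the labels, so this total count is no check of the genotype.

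After transfer, 20 of 11715 tested genes differed between KO and WT at an adjusted p under 0.05 (edgeR quasi-likelihood test, Benjamini-Hochberg), which is 0.171% of genes, with 10 higher and 10 lower in KO (0.0854% of genes in each direction). At an unadjusted p under 0.05 there were 765 genes (6.53%). In the diet libraries, averaged over the 3 diets, 21 of 11698 genes were called (0.18%). Of the 20 genes, 6 were also called in the diet average in the same direction: Nr1d1, Nr1d2 and Per3 lower, and Cry1, Npas2 and Furin higher in KO. For another 7 the KO effect after transfer differed from the average diet effect by a test of that difference, a call made for 14 of 12523 genes (0.112%): Ctse, Btg2, Gpr25, Cd40lg and Gm26781 lower, and H2-Q7 and H2-Q6 higher. Of these, Gpr25 and Gm26781 were too low to be tested in the diets, so no diet effect was measured for them. Both were high in the transfer WT libraries alone, and their calls rest on those libraries. The last 7 fell in neither class: Pim1, Cap1, Fes, Gm35082 and Gm44851 higher, and Camsap2 and Cpm lower. Nothing in the labels says that the 2 libraries of a group came from separate animals, so p-values measure the spread between libraries.

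Sequence upstream of Nr1d2 and Cry1 is shown because each promoter holds a run of letters that was searched for. Each run is the 120 bases directly before the RefSeq start (build GRCm38.p6, transcribed strand, which is the minus strand for both), with the motif in capitals. The Nr1d2 run, chr14:18239107-18239226, holds AGGTCA, the core hexamer of ROR and REV-ERB elements, beginning 77 bases before the start. This hexamer is only the core of such elements, and whether it is bound was not tested. The Cry1 run, chr10:85185055-85185174, holds the E-box CACGTG beginning 60 bases before the start.
Nr1d2: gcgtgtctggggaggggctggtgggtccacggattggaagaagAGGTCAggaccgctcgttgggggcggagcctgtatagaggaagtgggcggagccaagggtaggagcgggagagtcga
Cry1: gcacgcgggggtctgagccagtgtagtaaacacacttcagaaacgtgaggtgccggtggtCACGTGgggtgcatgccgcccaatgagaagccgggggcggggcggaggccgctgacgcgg
On either strand the E-box CACGTG occurred in 7.15% and the hexamer AGGTCA in 16.3% of 32851 promoter windows of 300 bases. The windows of Nr1d1, Npas2 and Per3 held neither run of letters. Thus Nr1d1, Nr1d2 and Per3, listed below as driven by BMAL1 with CLOCK, had no E-box in the window. Cry1 and Npas2, listed below as under REV-ERB and ROR control, had no AGGTCA in it.

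Among the clock genes driven by BMAL1 with CLOCK, 3 of 11 tested were lower in KO after transfer and none was higher. Over all tested genes, 0.0854% were called in each direction. Nr1d1 (chr11:98767932-98775333), which encodes the repressor REV-ERBα, had 70.9 and 105 CPM in WT and 1.5 and 0.753 CPM in KO. That is a log2 fold change of -6.29 ± 0.41 (SE), with adjusted p = 0.000233. The KO libraries held almost none of this transcript, and the groups were far apart. In the diets Nr1d1 ran from 15.6 to 44.9 CPM (median 25.7) in 9 WT libraries and from 0.646 to 4.38 CPM (median 1.13) in 9 KO libraries, so both transfer WT libraries lay above every diet WT library. The diet effect was -3.77 ± 0.28, and its difference from the transfer effect did not pass the threshold (adjusted p = 0.201). Thra, which overlaps the end of Nr1d1 on the opposite strand, had 27.7 and 28.1 CPM in WT and 3.21 and 8.29 CPM in KO (adjusted p = 0.269, but 0.00829 with DESeq2, 0.00835 in the fit of all 22 libraries and 0.000548 with no filter), and with reads that carry no strand the overlapping part cannot be assigned to either gene.

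Nr1d2 (chr14:18204054-18239127), which encodes the second REV-ERB, REV-ERBβ, had 25.7 and 30.9 CPM in WT and 3.0 and 1.32 CPM in KO (log2 fold change -3.73 ± 0.51, adjusted p = 0.0267). Per3 (chr4:151003652-151044665), a member of the PERIOD family, had 37.98 and 28.95 CPM in WT and 5.14 and 3.39 CPM in KO (-2.98 ± 0.41, adjusted p = 0.0267). Both groups were separate for both genes, as in the diets, where Nr1d2 fell by 4.35 and Per3 by 2.66 on the log2 scale. The transfer effect of neither gene differed from the diet effect past the threshold (adjusted p = 0.871 and 0.948). With 2 libraries a group these calls were sensitive to single libraries: without WT replicate 1 the adjusted p was 0.0864 for Nr1d2 and 0.216 for Per3, without WT replicate 2 it was 0.142 and 0.0566, and without KO replicate 2 it was 0.0711 and 0.0985.

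The other members of this group did not pass the threshold. Per1, whose transcript responds to the clock and to acute signals, had 432 and 496 CPM in WT and 337 and 370 CPM in KO (-0.41 ± 0.12, adjusted p = 0.523). Ciart, a repressor of the CLOCK-BMAL1 complex, had 12.7 and 14.2 CPM in WT and 5.57 and 1.88 CPM in KO (adjusted p = 0.666). Cry2, which encodes a repressor of the loop, had 7.68 and 13.1 CPM in WT and 45.4 and 33.0 CPM in KO (1.89 ± 0.37, adjusted p = 0.183). Cry2 was called with DESeq2 (adjusted p = 0.00615), in the fit of all 22 libraries (0.00325) and with no filter on low counts (0.000271). These 3 had KO and WT values that did not overlap, as did 35.6% of all tested genes. Of the output factors that bind D-boxes, Dbp and Tef had log2 fold changes of -0.63 and -0.56 and Hlf had 1.13 (adjusted p = 0.888, 0.835 and 0.351), and Hlf was called with no filter (0.0467). Bhlhe40 and Per2 had 0.23 and 2.28, the latter from at most 4.71 CPM, and Bhlhe41 had too few counts to be tested. The median over the 11 tested members was -0.56 after transfer and -0.24 in the diets, against 0.00 for all genes in both.

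Of 7 tested clock genes that REV-ERB and ROR receptors are known to control, 2 were higher in KO and none was lower. The share over all tested genes was 0.0854% in each direction. Cry1 (chr10:85131700-85185064), which encodes a cryptochrome, a repressor of the loop, had 95.5 and 96.4 CPM in WT and 263 and 238 CPM in KO (log2 fold change 1.37 ± 0.14, adjusted p = 0.00462). Npas2 (chr1:39193731-39363236), which encodes a partner of BMAL1 in place of CLOCK, had 3.51 and 14.6 CPM in WT and 88.5 and 97.4 CPM in KO (3.31 ± 0.47, adjusted p = 0.0327). For both genes every KO library lay above every WT library. The diet effects were 1.25 ± 0.08 for Cry1 and 2.93 ± 0.29 for Npas2, and the differences from the transfer effects did not pass the threshold (adjusted p = 0.924 and 0.937). The Npas2 call was lost without KO replicate 2 (adjusted p = 0.0735). Clock, Nfil3 and Rora did not pass, with log2 fold changes of -0.33, 0.57 and -0.05. The median of the 7 was 0.09 after transfer and 0.22 in the diets.

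**Figure D1:**
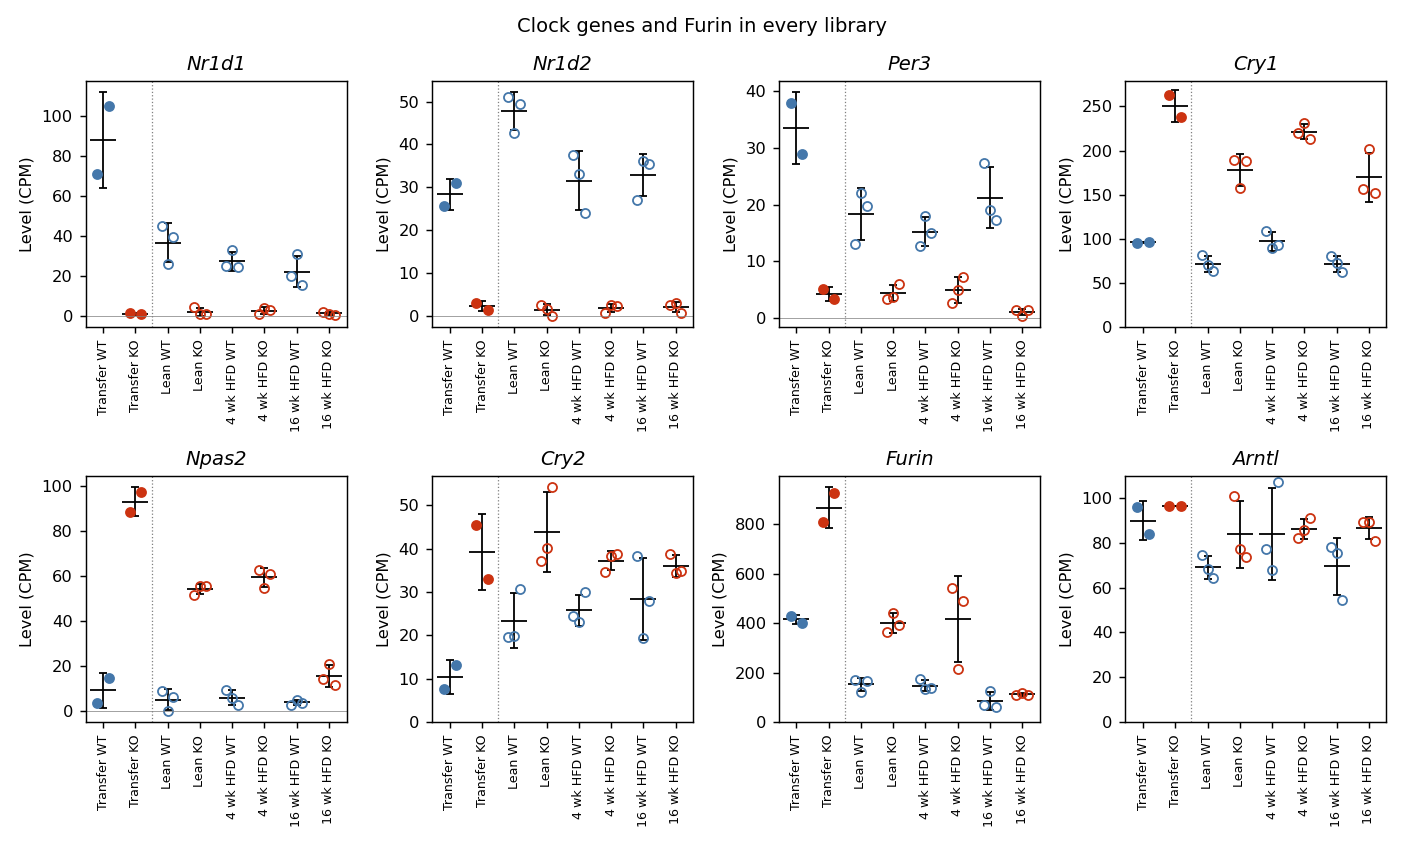
Levels (CPM, linear axes from about 0) of 6 clock genes, Furin and Arntl in every library. Filled points are transfer libraries and open points diet libraries, blue is WT and red KO, and bars give the group mean ± SD (n = 2 after transfer, n = 3 per diet group). Nr1d1, Nr1d2 and Per3 sit lower, and Cry1, Npas2 and Furin higher, in transfer KO than in transfer WT, while Arntl reads 83.8 to 96.6 CPM in all 4 transfer libraries.

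Furin was the shared gene outside the clock lists. It lies at chr7:80388585-80405436 and encodes a proprotein convertase that cleaves precursors, pro-TGF-β among them. Arntl is on the same chromosome, where 4 of 889 tested genes were called after transfer (Furin, Fes, Gm44851 and Gm35082), against 20 of 11715 in all. Whether DNA linked to the Arntl allele plays a part for Furin was not tested. Furin had 428 and 403 CPM in WT and 811 and 926 CPM in KO (log2 fold change 1.05 ± 0.11, adjusted p = 0.00462). In the diets it ran from 62.5 to 173 CPM in WT and from 108 to 542 CPM in KO (1.09 ± 0.15, adjusted p = 0.00108), so all 4 transfer libraries lay above every diet WT library, and the KO transfer libraries above all 18. By diet the effect was 1.39 ± 0.27 on lean diet, 1.505 ± 0.27 after 4 weeks and 0.38 ± 0.27 after 16 weeks of high fat diet (adjusted p = 0.0844, 0.0269 and 0.765). In the fit of all 22 libraries the Furin call after transfer was lost (adjusted p = 0.185). Fes, a tyrosine kinase gene that lies next to Furin at chr7:80377756-80387946, had 35.1 and 33.8 CPM in WT and 82.7 and 101 CPM in KO (1.40 ± 0.21, adjusted p = 0.0417). Its diet effect was 1.73 ± 0.37, adjusted p = 0.0755. The Fes call was lost on leaving out any 1 of the 4 libraries, with adjusted p from 0.0598 without KO replicate 1 to 0.287 without KO replicate 2, and in the fit of all 22 libraries (0.492). Gm44851, an antisense gene that overlaps Furin and was picked after its values were seen, had 97.5 and 110 CPM in WT and 236 and 292 CPM in KO (adjusted p = 0.0101), and unstranded reads cannot be assigned where it overlaps Furin. Its call was lost without WT replicate 1 (adjusted p = 0.0906), without KO replicate 2 (0.0711) and in the fit of all 22 libraries (0.36). Of 13 tested genes of TGF-β maturation and signalling, Furin alone was called. Tgfb1 itself had 64.8 and 87.4 CPM in WT and 91.7 and 85.3 CPM in KO (adjusted p = 0.954).

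The reverse lookup began from the 21 genes called in the diets. After transfer 20 of them were tested, 19 had the same sign, 6 were called and 13 had an unadjusted p under 0.05. Over all genes tested after transfer, 0.171% were called and 6.53% had an unadjusted p under 0.05. The 6 shared genes were 30% of the transfer calls and 28.6% of the diet calls. For none of the 21 did the 2 effects differ past the threshold. Lilr4b, an inhibitory leukocyte receptor gene, had 219 and 308 CPM in WT and 546 and 538 CPM in KO after transfer (1.03 ± 0.16, adjusted p = 0.0542), against a diet effect of 0.61 ± 0.12. Lilr4b was called after transfer with DESeq2 (adjusted p = 3.71e-07), no filter (1.37e-11), a stricter filter (0.0278), robust fitting (0.0431) and without WT replicate 2 (0.0111). Krt83, a keratin gene, had 7.46 and 7.55 CPM in WT and 25.5 and 15.6 CPM in KO (1.44 ± 0.44, adjusted p = 0.583), close to its diet effect of 1.48 ± 0.27. Gps2, a corepressor subunit gene, was the gene with the opposite sign (0.05 ± 0.20 after transfer, -0.38 ± 0.08 in the diets). Across the 11003 genes tested in both fits, which share no libraries, the log2 fold changes correlated at r = 0.116, and at 0.0841 without the clock lists, while the 18 clock genes gave 0.919 with 13 of 18 signs alike. These are descriptions across genes, which are not independent. The clock lists include Nr1d1, Nr1d2, Per3, Cry1 and Npas2, which were called in both experiments, and r without these genes was not computed. Nor was the share of like signs over all genes.

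**Figure D2:**
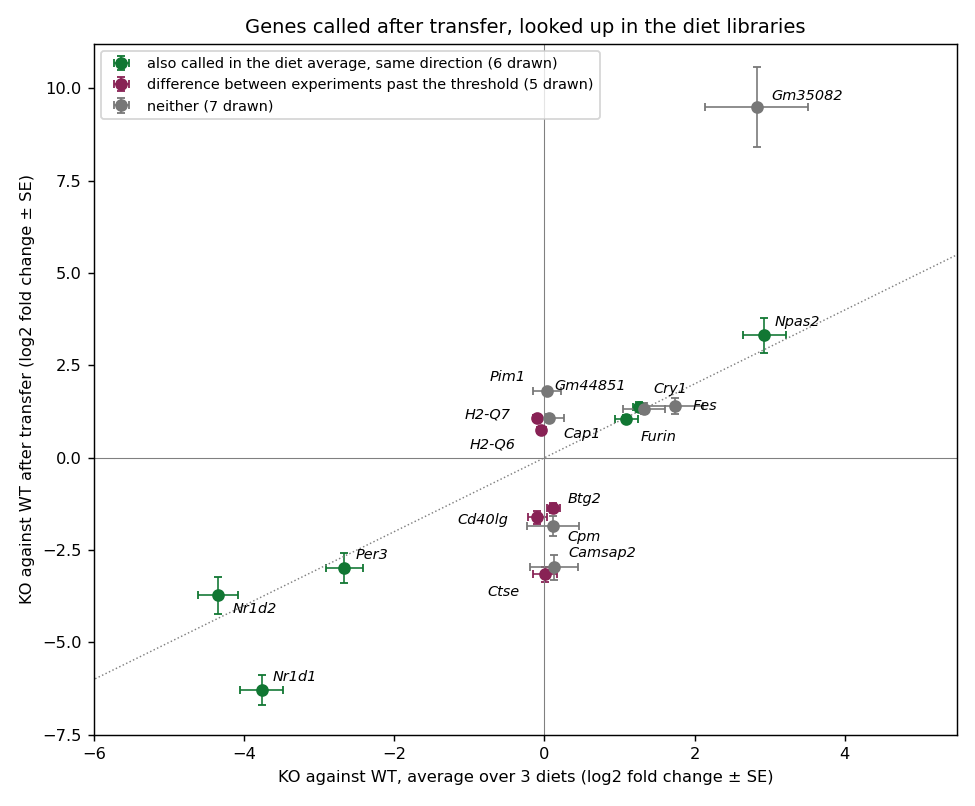
Log2 fold change of KO against WT after transfer (vertical) against the average over the 3 diets (horizontal), each ± SE, for the 18 genes called after transfer and tested in the diets. The dotted line marks equal effects. Green genes (6) lie near it or, for Nr1d1, below it, and the 5 purple genes, whose effects differed between experiments, lie near 0 on the horizontal axis, as do Pim1, Cap1, Camsap2 and Cpm.

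Among the genes with unlike effects in the 2 experiments, Ctse (chr1:131638306-131675505), which encodes the aspartic protease cathepsin E, had 493 and 402 CPM in WT and 60.9 and 40.5 CPM in KO after transfer (log2 fold change -3.16 ± 0.21, adjusted p = 0.000233). Its 9 diet WT libraries ran from 19.5 to 65.1 CPM (median 41.7) and its 9 diet KO libraries from 27.1 to 55.2 CPM (median 38.3), with an average diet effect of 0.01 ± 0.16. By diet the effect was 0.61 ± 0.29 on lean diet, 0.02 ± 0.28 after 4 weeks and -0.61 ± 0.28 after 16 weeks of high fat diet (adjusted p = 0.692, 0.999 and 0.525). The transfer KO libraries thus lay within the diet range and the transfer WT libraries above it. The difference between the 2 effects was -3.15 ± 0.35 (adjusted p = 4.09e-05).

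Btg2 (chr1:134075170-134079120) is an antiproliferative gene induced by p53 and by acute stimuli. It had 4488 and 5265 CPM in WT and 1613 and 2200 CPM in KO (-1.37 ± 0.14, adjusted p = 0.00462). Diet libraries of both genotypes ran from 705 to 1699 CPM, so the transfer WT libraries and KO replicate 2 stood above them. By diet its effect was 0.59 on lean diet, 0.04 after 4 weeks and -0.28 after 16 weeks of high fat diet, none of them called (adjusted p = 0.194, 0.999 and 0.581). The difference between the effects was -1.47 ± 0.20 (adjusted p = 0.000729). Btg2 was the only called member among 33 tested immediate early and TCR-induced genes, of which 23 had a positive log2 fold change. Egr1 and Nr4a1, transcription factor genes induced by receptor signals, had 0.40 (adjusted p = 0.711) and 0.04 (adjusted p = 0.986).

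Gpr25 (chr1:136259797-136260873), a G protein-coupled receptor gene, had 47.9 and 55.2 CPM in WT and no count in either KO library. It was thus at least 85.3-fold lower in KO, against 3 counts in each KO library (adjusted p = 0.000488). The gene was too low to be tested in the diets, where no library exceeded 2.34 CPM. The KO libraries were therefore like the diet libraries of both genotypes, and the transfer WT libraries were apart. Any difference of Gpr25 from the diets thus rests on the transfer WT libraries, and no diet effect could be measured. Gm26781, an antisense gene at chr1:136259407-136274406 that spans Gpr25 and the end of Camsap2 on the opposite strand, had 55.1 and 62.8 CPM in WT and 0.429 and 0.188 CPM in KO (adjusted p = 0.000233). Gm26781 was likewise too low to be tested in the diets, where no library exceeded 4.98 CPM. Camsap2 (chr1:136268123-136346104), whose protein binds the minus ends of microtubules, had 44.6 and 39.7 CPM in WT and 5.14 and 5.65 CPM in KO (-2.97 ± 0.33, adjusted p = 0.00729), against 3.35 to 16.4 CPM in all diet libraries. Its difference from the diet effect missed the threshold (-3.08 ± 0.65, adjusted p = 0.0635). Gm26781 overlaps both Gpr25 and Camsap2, which do not overlap each other, and unstranded reads cannot be assigned in the overlapping parts. These overlaps are of whole gene spans, and shared exons were not checked. The Gpr25 difference from the diets passed the threshold (adjusted p = 0.0224), and the call was lost without transfer WT replicate 1, WT replicate 2, KO replicate 2 or lean KO replicate 1 (0.0544, 0.0572, 0.0751 and 1.00). Gm26781 also differed from the diets (adjusted p = 0.0182), and this call was lost on leaving out any 1 of the 4 transfer libraries (from 0.0544 without WT replicate 1 to 0.153 without KO replicate 2) and, at 0.0511 and 0.0507, without lean KO replicate 1 or 2. Camsap2 lost its call after transfer without WT replicate 1 (0.0677).

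Cd40lg (chrX:57212143-57224042) encodes CD40 ligand, the helper signal of activated CD4+ T cells. It had 127 and 141 CPM in WT and 46.9 and 41.6 CPM in KO (-1.61 ± 0.18, adjusted p = 0.00729). The diet libraries ran from 55.0 to 114 CPM, which put the transfer WT libraries above and the transfer KO libraries below all 18. The difference between the effects was -1.50 ± 0.28 (adjusted p = 0.0279). The Cd40lg call after transfer was lost without WT replicate 2 (adjusted p = 0.0566) and without KO replicate 2 (0.0556). The difference from the diets was lost on leaving out any 1 of the 4 transfer libraries (from 0.0812 without WT replicate 1 to 0.229 without KO replicate 2) and without lean KO replicate 1 (0.051). Cd40lg was the called member among 9 tested T helper effector genes. Il5, the eosinophil cytokine gene, had 52.9 and 107 CPM in WT and 223 and 131 CPM in KO, with adjusted p = 0.526.

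The genes of this class that were higher in KO were 2 neighbouring nonclassical class I genes of the major histocompatibility complex. H2-Q7 (chr17:35439155-35443773), which encodes a Qa-2 antigen, had 748 and 735 CPM in WT and 1604 and 1530 CPM in KO (1.07 ± 0.09, adjusted p = 0.00144). H2-Q6 (chr17:35424850-35430055), also a Qa-2 gene, had 663 and 611 CPM in WT and 1024 and 1120 CPM in KO (0.74 ± 0.10, adjusted p = 0.0267). For both, the transfer WT libraries lay below all 18 diet libraries, which began at 1155 CPM for H2-Q7 and 812 CPM for H2-Q6, and the transfer KO libraries lay within the diet range. The differences from the diet effects were 1.18 ± 0.13 for H2-Q7 (adjusted p = 4.09e-05) and 0.80 ± 0.13 for H2-Q6 (adjusted p = 0.0125). The Q genes are near-identical copies, so how reads were split among them is uncertain. The H2-Q6 call after transfer was lost on leaving out any 1 of the 4 libraries, with adjusted p from 0.0583 without KO replicate 1 to 0.177 without KO replicate 2. Its difference from the diets was lost without WT replicate 1, WT replicate 2 or KO replicate 2 (0.0544, 0.105 and 0.151).

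**Figure D3:**
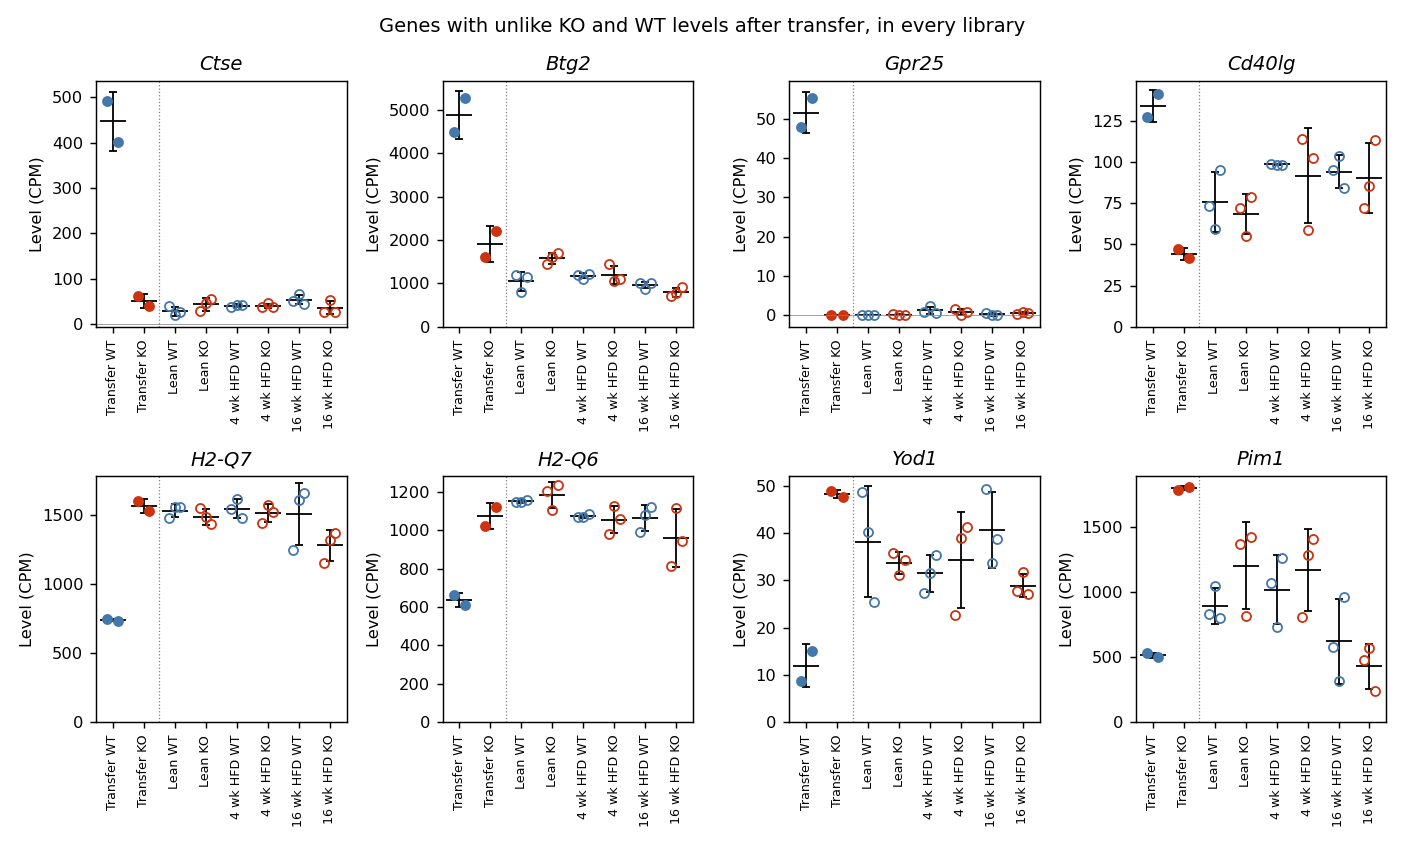
Levels (CPM, linear axes from about 0) of 8 genes in every library: filled points are transfer and open points diet libraries, blue is WT, red is KO, and bars give the group mean ± SD (n = 2 after transfer, n = 3 per diet group). For Ctse, Btg2, Gpr25, Cd40lg, H2-Q7, H2-Q6 and Yod1 the transfer WT libraries lie outside the range of the 18 diet libraries, whereas for Pim1 the transfer KO libraries do. Yod1 was not called after transfer (adjusted p = 0.082), and the Pim1 difference from the diets was not called.

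In all 7 genes of this class the 2 transfer WT libraries lay outside the range of the 18 diet libraries, 5 above and 2 below. Both transfer KO libraries lay within that range for 5 of the 7. For Cd40lg both lay below it, and for Btg2 KO replicate 2, at 2200 CPM, lay above it. These genes were picked by their difference from the diets, so such positions follow in part from the choice. For Gpr25 and Gm26781, too low to be tested in the diets, the position of the transfer WT libraries is no added support. The share of all genes with transfer WT levels outside the diet range was not counted. Against the lean diet alone, a call made for 4 of 12523 genes (0.0319%), the difference passed for H2-Q7, Ctse, Btg2 and Yod1. Yod1 (chr1:130717327-130724358), a deubiquitinase gene, had 8.78 and 15.1 CPM in WT and 48.9 and 47.7 CPM in KO after transfer (1.99 ± 0.32, adjusted p = 0.082), and 22.6 to 49.4 CPM in the diets. Yod1 was called after transfer with DESeq2 (adjusted p = 0.00023), in the fit of all 22 libraries (0.00171) and with no filter (3.22e-06).

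Several of these genes are neighbours on chromosome 1. Ctse, Btg2, Gpr25, Gm26781 and Camsap2 lie within 10 Mb of Ptprc (chr1:138062861-138175708). Ptprc encodes CD45, whose alleles are widely used to mark donor cells, and the window was chosen after the positions of the called genes were seen. Within 20 Mb of Ptprc, 5 of 165 tested genes were called after transfer (3.03%), against 0.171% of all genes, and 0 of 156 in the diets, where 16 (10.3%) had an unadjusted p under 0.05, against 7.39% of all genes. After transfer 25 of the 165 genes (15.2%) had an unadjusted p under 0.05, against 6.53% of all genes. The difference from the diets was called for 6 of 173 genes in the window (3.47%, against 0.112% of all genes), Btg2, Ctse, Gpr25, Gm26781, Yod1 and Ptprv. Among them, Gpr25 and Gm26781 were too low to be tested in the diets, so no diet effect was measured for these. The calls of Gpr25, Gm26781 and Camsap2 may not be separate, since Gm26781 overlaps the other 2 and the reads carry no strand. Outside the window 15 genes remained called after transfer. Ptprc itself had 1168 and 1209 CPM in WT and 1245 and 1219 CPM in KO (0.04 ± 0.09, adjusted p = 0.989). The labels name no CD45 allele or donor strain. For genes near Ptprc, and for every other gene compared after transfer, the Bmal1 genotype and any other difference between the donors therefore cannot be told apart.

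Around Arntl itself (chr7:113207465-113314126), 7 of 273 tested genes within 20 Mb were called in the diets (2.56%) and 1 of 275 after transfer (0.364%), the predicted gene Gm35082. The shares with an unadjusted p under 0.05 were 10.3% and 9.45%, and for 0 of 296 genes did the difference between the 2 effects pass the threshold (22 had an unadjusted p under 0.05). Gm35082 had no count in either WT library and 14.8 and 21.3 CPM in KO, at least 30.1-fold higher against 3 counts in each WT library (adjusted p = 0.0157). In the diets it ran from 0 to 27.1 CPM in WT and 13.1 to 51.1 CPM in KO, and the call after transfer was lost without KO replicate 2 (adjusted p = 0.0985) and in the fit of all 22 libraries (0.256). Trim12a, a TRIM family gene on this chromosome, had 34.4 to 77.5 CPM in diet WT libraries. In diet KO it had no count in 7 libraries, 25.9 CPM in lean replicate 1 and 26.3 CPM in replicate 1 of 4 weeks of high fat diet. After transfer it had 48.7 and 43.0 CPM in WT and 28.7 and 22.2 CPM in KO (-0.86 ± 0.26, adjusted p = 0.587). Its difference between experiments did not pass the threshold (4.40 ± 1.54, adjusted p = 0.442). Trim5, Trim30d and Trim34a of the same cluster had -0.74, -0.89 and -0.30 after transfer (adjusted p = 0.858, 0.888 and 0.975) against -3.02, -3.37 and -1.24 in the diets. Gm1966, also near Arntl, had 86.3 and 87.6 CPM in WT and 45.9 and 37.1 CPM in KO (-1.08 ± 0.20, adjusted p = 0.17, but 0.0112 with DESeq2 and 0.0011 with no filter).

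**Figure D4:**
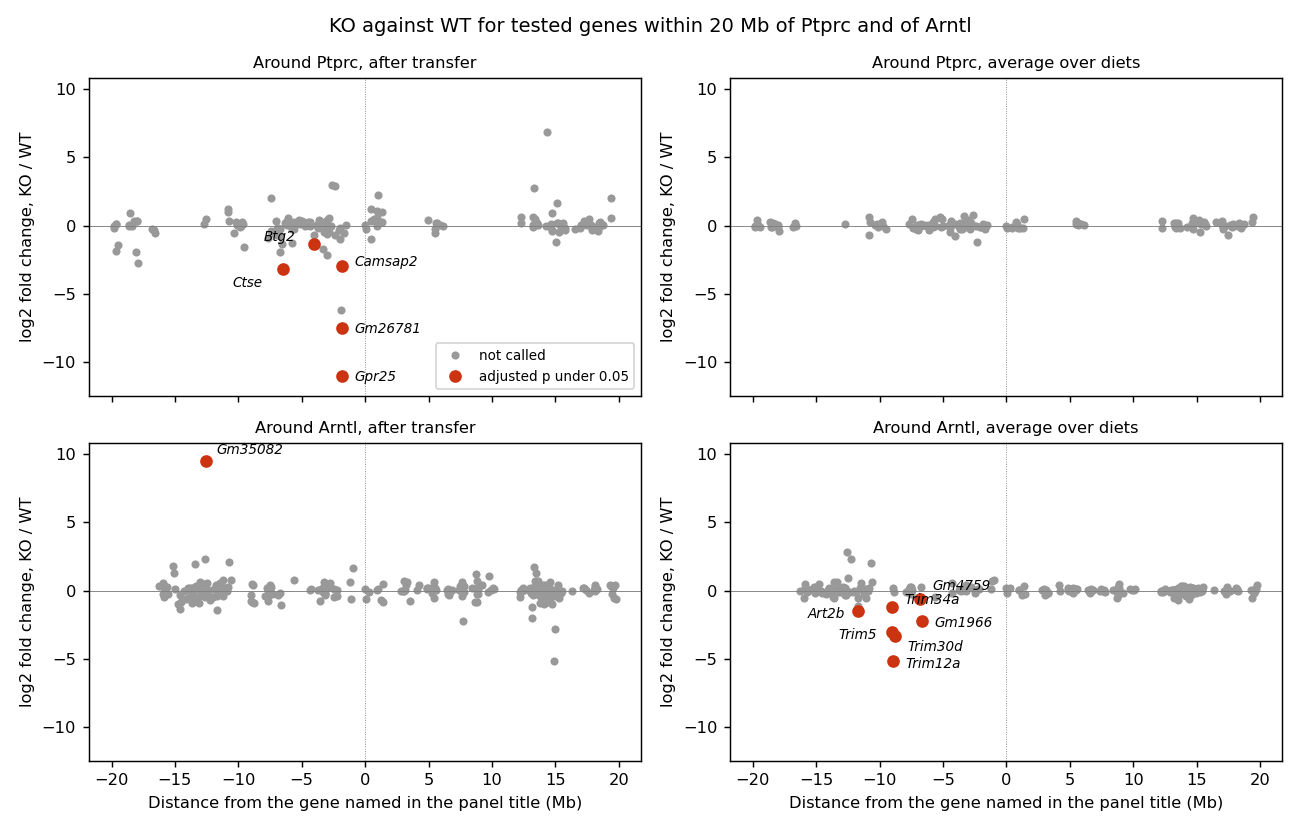
Log2 fold change of KO against WT for each tested gene within 20 Mb of Ptprc (upper panels) and of Arntl (lower panels), by distance from that gene, after transfer (left) and averaged over the diets (right). Red points are genes with an adjusted p under 0.05: 5 near Ptprc and 1 near Arntl after transfer, 0 and 7 in the diets.

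Of the 7 genes in neither class, Pim1 had the smallest adjusted p of all genes after transfer. Pim1 (chr17:29490753-29496112) encodes a serine/threonine kinase that STAT5 induces downstream of the IL-2 receptor and that favours survival. It had 527 and 499 CPM in WT and 1785 and 1806 CPM in KO (1.79 ± 0.09, adjusted p = 9.96e-05). The replicates were close, but the diet libraries spread over 316 to 1257 CPM in WT and 239 to 1423 CPM in KO (diet effect 0.03 ± 0.19). The difference from the diet effect was 1.78 ± 0.43, adjusted p = 0.144. Of 15 tested genes of the IL-2 receptor and STAT5 list, Pim1 alone was called. Il2ra, the high-affinity subunit of the IL-2 receptor, had 1142 and 1409 CPM in WT and 1927 and 1550 CPM in KO (adjusted p = 0.587), and Cish, a feedback inhibitor induced by STAT5, had 1206 and 1145 CPM in WT and 1234 and 1152 CPM in KO (adjusted p = 0.994).

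Cap1, which encodes an actin-binding protein, had 240 and 245 CPM in WT and 524 and 508 CPM in KO (1.08 ± 0.11, adjusted p = 0.00462). The diet libraries spread over 156 to 660 CPM, which includes all 4 transfer libraries, and the call was lost in the fit of all 22 libraries (adjusted p = 0.398). Cpm, the gene of carboxypeptidase M, had 239 and 355 CPM in WT and 59.4 and 107 CPM in KO (-1.85 ± 0.27, adjusted p = 0.0417), and lost its call without WT replicate 2 (adjusted p = 0.185) and in the fit of all 22 libraries (0.388). Here the transfer WT libraries lay above all diet libraries, whose highest value was 230 CPM.

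The programmes that define fat Tregs did not yield a call after transfer. None of 22 tested genes of the adipose Treg signature passed, 11 with a positive and 11 with a negative log2 fold change and a median of 0.01. Pparg, the nuclear receptor of the fat Treg programme, had 152 and 135 CPM in WT and 125 and 136 CPM in KO (adjusted p = 0.957). Il1rl1, which encodes the IL-33 receptor, had 1290 and 1260 CPM in WT and 1533 and 1439 CPM in KO (0.21 ± 0.09, adjusted p = 0.744). Il10, the gene of the suppressive cytokine, had 614 and 824 CPM in WT and 429 and 516 CPM in KO (-0.62 ± 0.15, adjusted p = 0.384). The core Treg identity list (16 tested), the effector and co-inhibitory list (19) and the resting T cell list (13) also had no call, with medians of 0.03, 0.06 and -0.06. A p that misses the threshold with 2 libraries a group does not show that levels were equal.

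Among 26 tested chemokine receptors and adhesion molecules none was called. Ccr9, a gut homing receptor, came nearest, with 222 and 331 CPM in WT and 130 and 103 CPM in KO (-1.26 ± 0.21, adjusted p = 0.082). Cxcr4, the receptor of CXCL12, had 42.8 and 65.5 CPM in WT and 18.2 and 17.5 CPM in KO (-1.61 ± 0.29, adjusted p = 0.138). The 32 cell cycle genes had no call, 24 positive values and a median of 0.28, and in the diets 30 of 32 were positive with a median of 0.31. Heat shock genes were negative in 13 of 14 after transfer (median -0.14) with a median of 0.09 in the diets, and 18 of 24 interferon-stimulated genes were positive (median 0.13) against -0.08 in the diets. None of these was called, and over all genes 50.6% were positive. Nuclear oxidative phosphorylation (46 tested), glycolysis (19), sterol and fatty acid synthesis (27) and fatty acid uptake and oxidation (25) had no call and medians of 0.01, -0.03, 0.03 and 0.06. The same held for clock protein turnover and output enzymes (9 tested, median -0.01), NF-kB targets (17, 0.05), BCL2 family and death genes (19, 0.05), p53 targets (10, 0.28), mitochondrially encoded genes (10, 0.14), the unfolded protein response (15, 0.13) and redox genes (17, 0.01).

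**Figure D5:**
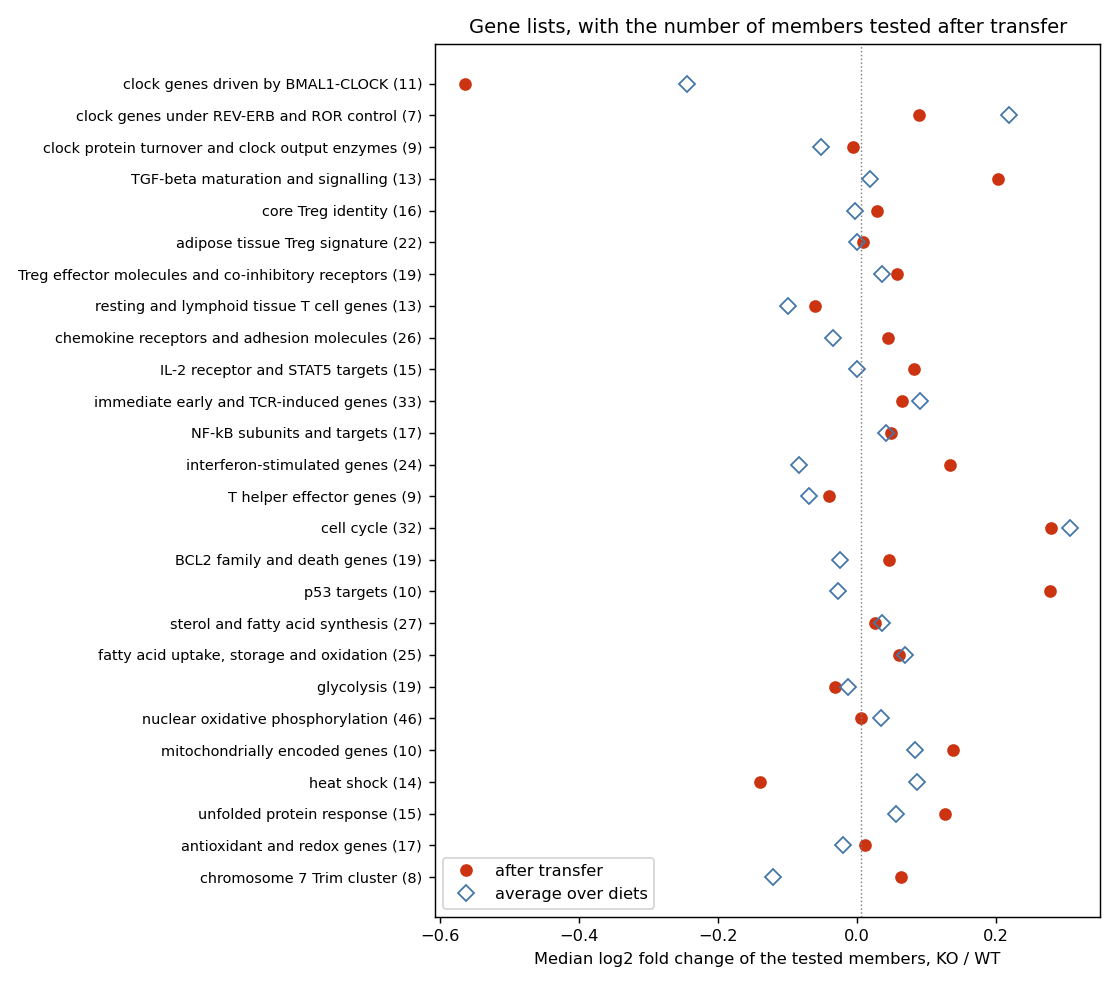
Median log2 fold change of KO against WT over the tested members of each gene list, after transfer (red points) and averaged over the diets (open diamonds), with the number of members tested after transfer in parentheses. The dotted line is the median of all tested genes. The BMAL1-CLOCK list has the lowest median after transfer, -0.56, and core Treg and adipose Treg lists sit at 0.03 and 0.01.

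Markers of other cells were low beside those of Tregs, and for several kinds the KO and WT ranges did not overlap. The same was true of 35.6% of all tested genes, so separate ranges alone say little with 2 libraries a group. The summed level of 8 cytotoxic T and NK cell markers was 102 to 115 CPM in WT and 45.9 to 75.9 CPM in KO, led by Cd8b1 with 34.9 and 27.7 CPM in WT and 12.9 and 8.1 CPM in KO (adjusted p = 0.324), while Cd8a had at most 0.377 CPM. The 4 tested members went both ways, 2 with a positive and 2 with a negative log2 fold change, from -1.59 for Cd8b1 to 3.91 for Prf1. Macrophage markers (10) summed to 5.93 to 10.1 CPM in WT and 11.6 to 14.5 CPM in KO, with C1qb at 0. Adipocyte markers (6) summed to 3.29 to 4.5 CPM in WT and 9.21 to 11.9 CPM in KO, endothelial markers (8) to 37.8 to 47.8 and 58.4 to 65.4 CPM with Flt1 at 0, and class II and dendritic markers (9) to 46.6 to 48.7 and 54.0 to 57.8 CPM. Mesothelial and epithelial markers (7) summed to 93.1 to 104 CPM in WT and 69.9 to 79.3 CPM in KO, with Upk3b and Krt19 at 0. B cell markers (8), at 137 to 169 and 146 to 163 CPM, stromal markers (7), at 1.98 to 4.17 and 1.88 to 10.3 CPM, and red blood cell markers (5), at 1.44 to 1.54 and 1.13 to 1.71 CPM, overlapped between genotypes. No marker passed the threshold, and the part of other cells in the genes called after transfer was not tested. In libraries from sorted pools, fewer cells of a kind and less RNA per cell cannot be told apart.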

How the data were processed

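RNA-seq was deposited for 22 libraries of 1000 sorted Tregs each. The submitters' processing notes name STAR 2.7.3a, featureCounts and the mm10 build, and the labels describe a kit that does not mark strand. The deposited table by the authors holds whole-number counts per gene symbol, with no scaling. Reads were oligo(dT)-primed and amplified without molecular identifiers, so counting limits cover counting error only.

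Groups came from the labels. For the 4 transfer libraries, edgeR 4.0.16 (R 4.3.3) filtered genes at a minimum count of 10, computed TMM factors and ran its quasi-likelihood test, with Benjamini-Hochberg adjustment over all tested genes and a threshold of 0.05. The 18 diet libraries were fitted together for the average KO effect. A fit of all 22 libraries gave the difference between transfer and diet effects. Printed CPM use TMM factors over 22 libraries. Where a group had no count, a fold was set against 3 counts in each library. All adjusted p values are from edgeR unless DESeq2 1.42.0, an alternative, is named.

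Named were Arntl, the clock list members, the called genes with separate library ranges and a group mean of at least 5 CPM, called list members, and the genes with called differences between experiments. Predicted and antisense genes fall outside this rule and were picked after their values were seen, as were list members given for contrast. Members and lists were chosen with earlier results of these data known. Of 55011 symbols, 52830 (96.0%) were found in GENCODE M21, which gave positions and overlaps. Some members of the lists are not reported here by name. Fits were tested on simulated counts with known changes. These counts held no batch and no outlying library, so they do not measure sensitivity to single libraries. Alternatives are in the closing section.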

Additional observations from a re-analysis of the deposited data

Results flagged for a closer look

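For 14 genes the KO effect after transfer differed from the average diet effect by the interaction term of the 22-library fit (edgeR). The difference, the log2 fold change after transfer minus that in the diets, was 1.18 for H2-Q7, 0.80 for H2-Q6, 2.18 for Yod1, 4.12 for Bach2 and 2.45 for Wscd2. It was -11.24 for Gpr25 and -6.86 for Gm26781, which were both too low to be tested in the diets, so that their values rest on transfer WT. It was -3.15 for Ctse, -1.50 for Cd40lg, -1.47 for Btg2, -3.23 for Unc5cl and -3.36 for Mirt1. The adjusted p for these 12 ran from 4.09e-05 for H2-Q7 and Ctse to 0.0281 for Wscd2. The other 2, outside the naming rule and picked after their values were seen, were Ptprv, with -2.05 ± 0.39 (adjusted p = 0.0296), and D430019H16Rik, with 4.82 ± 0.97 (adjusted p = 0.0462). Against the lean diet alone the differences were 1.12 for H2-Q7, -3.74 for Ctse, -1.95 for Btg2 and 2.18 for Yod1 (adjusted p = 0.000877, 9.84e-05, 0.000135 and 0.0459).

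The differences from the diets stayed past the threshold under every alternative run for H2-Q7, Ctse and Btg2. Each of the other 9 of the 12 was lost without at least 1 library: Yod1 without transfer WT replicate 1 (0.0879), Unc5cl without WT replicate 1 or KO replicate 2 (0.123 and 0.22), Bach2 without WT replicate 1, WT replicate 2 or KO replicate 2 (0.144, 0.07 and 0.229) and with DESeq2 (0.201), Mirt1 without any 1 of the 4 (0.0707 to 0.293) and Wscd2 likewise (0.0652 to 0.207) and without lean WT replicate 2 (0.0511); H2-Q6, Gpr25, Cd40lg and Gm26781 lost theirs without the libraries named beside each gene.

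Of the genes not yet described, Bach2, a transcription factor gene of resting T cells, had 0 and 0.18 CPM in transfer WT and 1.29 and 1.88 CPM in transfer KO, under the 6.21 to 26.8 CPM of the diet libraries, so its difference rests on a few counts. Unc5cl had 33.2 and 13.7 CPM in WT and 3.43 and 1.32 CPM in KO. Wscd2 had 7.68 and 4.32 CPM in WT and 29.4 and 19.6 CPM in KO, and Mirt1 had 5.49 and 5.93 CPM in WT and 0.643 and 0.188 CPM in KO. In the filtered edgeR fit none of these 4 was called in the transfer libraries alone, where Bach2 was too low to be tested. Unc5cl was called there with DESeq2 (adjusted p = 0.000548) and no filter (6.53e-06), and Wscd2 with DESeq2 (0.0436) and no filter (0.0129). In the fit of all 22 libraries Unc5cl, Wscd2 and Mirt1 were called after transfer (0.00241, 0.0359 and 0.00245).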

How the results depend on the processing

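After transfer 20 genes were called. The count was 102 with no filter on low counts, 61 with DESeq2, 37 in the fit of all 22 libraries, and 15 to 21 without single libraries; RLE scaling, a stricter filter and robust fitting gave 20 to 22. Of the 20 genes, 10 stayed called in all 4 fits that left out a library and 8 under every alternative, namely Nr1d1, Cry1, Pim1, H2-Q7, Gpr25, Ctse, Btg2 and Gm26781; no gene changed sign. For the diet average of 21, the count was 273 with no filter, 38 with DESeq2 and 16 to 29 without single libraries. The 14 differences between transfer and diets became 107 with no filter, 43 with DESeq2 and 5 to 16 without single libraries (5 without transfer WT replicate 1 or KO replicate 2, 7 without WT replicate 2, 9 without lean KO replicate 1). The 4 against lean diet became 109, 21 and 3 to 5.

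The 6 shared genes became 26 with no filter, 13 with DESeq2 and 3 to 8 without single libraries, 3 being without transfer KO replicate 2. The 7 genes with unlike effects became 37 with no filter, 16 with DESeq2, 14 in the fit of all 22 libraries and 3 to 8 without single libraries, with 4 without transfer WT replicate 1 or lean KO replicate 1 and 3 without WT replicate 2 or KO replicate 2. The diet calls with the same sign, 19, became 147, 31 and 15 to 27. The 5 clock genes called after transfer became 2 to 5, with 3 without WT replicate 1 or WT replicate 2 and 2 without KO replicate 2. Near Arntl the 1 call became 0 within 10 Mb.

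The labels number the replicates, and those of the transfer libraries also carry the letters A and B in both genotypes. The main fit did not pair same-numbered libraries, because the labels do not say that they belong together. Across genes, their deviations from the group means correlated at 0.015, which with 2 libraries a group cannot exclude a pairing. Whether the letters pair libraries is not known. With a replicate block 40 genes were called after transfer and 7 differences from the diets, those of Gpr25, Cd40lg, Bach2, Mirt1 and Wscd2 being lost (0.162, 0.0524, 0.128, 0.0718 and 0.0524). Cry2, Lilr4b, Yod1 and Unc5cl were called after transfer with the block (0.0434, 0.000629, 0.007 and 0.0058). With 2 libraries a group, depth and spread limit calls to large effects.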
